A study of Sus scrofa with 6 samples.

Results

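The microRNA (miRNA) ssc-miR-21 is 1 of the 898 miRNAs listed for skin of Xiang pigs, a Chinese breed of Sus scrofa. It is 1 of 280 with a miRBase-style porcine name, and the other 618 rows carry predicted identifiers. It was selected on its mean level over the 6 libraries, the highest of all listed miRNAs, so its rank and level are given as a description, with no test. Small RNA was sequenced in 3 libraries of white skin (S02, S06 and S07) and 3 of black skin (S03, S04 and S05). All 6 share breed, tissue, hair removal, alcohol disinfection and storage in a preservative in the cold. The labels give no animal, age, sex or body site, so whether the libraries of a colour are separate animals is unknown, and p-values speak for these samples alone and may reflect technical spread. The study asks which miRNAs bear on melanin formation.

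MiR-21 is a short regulatory RNA that, loaded into an Argonaute protein, pairs through its seed with messenger RNAs and lowers their output. It is among the most widely expressed miRNAs of mammals and is found in epithelial cells, fibroblasts, endothelium and leukocytes alike. Its known targets include PDCD4, a restraint on translation and growth, and the Sprouty proteins, which dampen growth factor signals. Its transcription is known to respond to AP-1 and STAT3, and it is raised in wounds, fibrosis and many tumours, melanoma included.

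In Sscrofa11.1 the precursor gene MIR21 lies at chr12:36065267-36065358, a span of 92 bases that overlaps no other gene in the RefSeq gene table used here. The nearest genes of that table are TUBD1, which encodes delta-tubulin and starts 14.6 kb further along the chromosome, and PTRH2, a mitochondrial peptidyl-tRNA hydrolase that ends 132 kb before it. The expression table holds 1 product of this hairpin, under the name ssc-miR-21 without an arm. Its values were identical to those of no other row.

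This single miRNA made up between 9.26% and 16.3% of the listed miRNA reads of each library. In white skin it measured 92618 (S02), 96844 (S06) and 163112 (S07) RPM, a unit in which the listed reads of every library add up to 1e+06. In black skin it measured 133150 (S03), 101434 (S04) and 159617 (S05) RPM. The groups overlapped over almost their whole range, with a high library in each colour (S07 and S05), a middle one in black skin (S03) and 3 low ones (S02, S06 and S04). These levels rest on 625097 (S06) to 1658190 (S07) reads of ssc-miR-21 out of 6454685 to 10165949 reads per library. The 95% exact Poisson interval of the lowest library ran from 92397 to 92839 RPM and that of the highest from 162864 to 163361 RPM, so counting error was far smaller than the differences between libraries.

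As a share of all listed reads, ssc-miR-21 took 9.26% in S02, 9.68% in S06 and 16.3% in S07, against 13.3% in S03, 10.1% in S04 and 16.0% in S05. Put differently, 1 listed read in 10.8 came from it in S02 and 1 in 6.13 in S07. Of the listed rows 47 were identical to another row, so the totals may count some reads more than once. Of the reads with a porcine name it held 11.4%, 11.8% and 19.1% in the white libraries and 14.97%, 11.7% and 18.0% in the black ones. In S07 its reads exceeded those of the 265 least abundant other named miRNAs added together, out of 279, and in S02 those of the lowest 256. The let-7 family is tied to differentiation. Its 8 rows with a let-7 name, that is without ssc-miR-98 of the same family, summed to 191731 RPM in S02 and 151019 RPM in S05. Thus ssc-miR-21 alone stood at 0.483 of the let-7 sum in S02, and it passed that sum, at 1.06 times, in S05, the 1 library in which it did so.

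**Figure D1:**
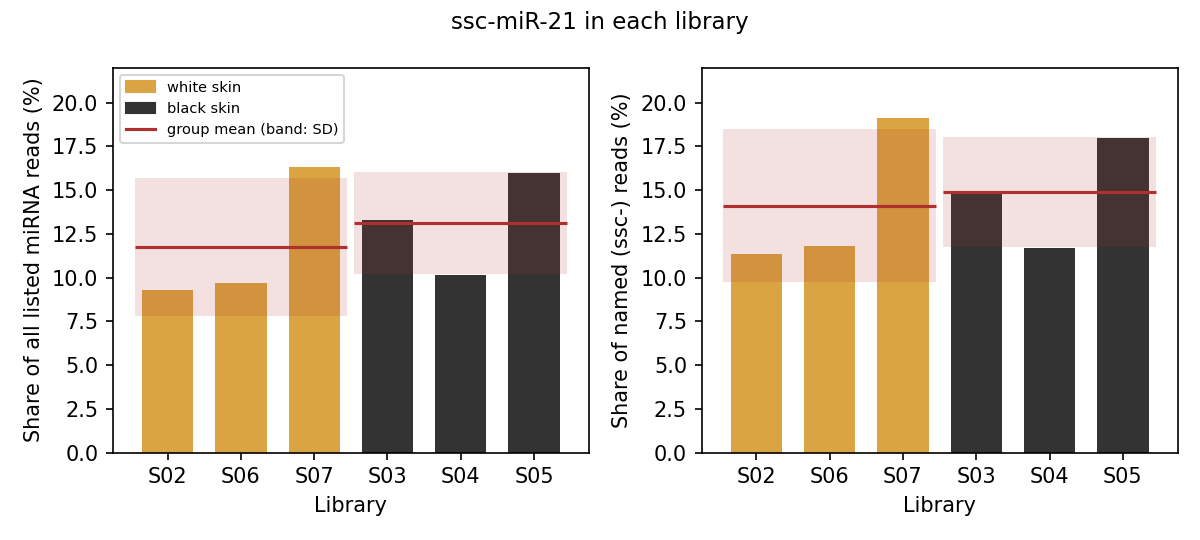
Share of ssc-miR-21 in each library, as a percentage of all listed miRNA reads (left) and of reads with a porcine name (right). Bars are libraries, the line is the mean and the band the SD of each group (n = 3); S07 (16.3% of all reads) and S05 (16.0%) stand above the other libraries of their colour.

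The lead of ssc-miR-21 is a lead on average, and it was first among all miRNAs in S07 and S05 alone. Among named miRNAs it held rank 1 in S02, S07 and S05, rank 2 in S06 and S03 and rank 3 in S04. In S06, S03 and S04 the first place belonged to ssc-miR-148a-3p, a regulator with MITF and DNA methyltransferases among its reported targets. In S02 the first place over all rows belonged to the predicted unconservative_AEMK02000452.1_1853219. The margin was narrow in S02, where ssc-miR-21 was 1.02 times the next named miRNA, ssc-miR-27b-3p, an angiogenesis-linked miRNA. It was widest in S07, at 1.90 times the same miRNA.

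**Figure D2:**
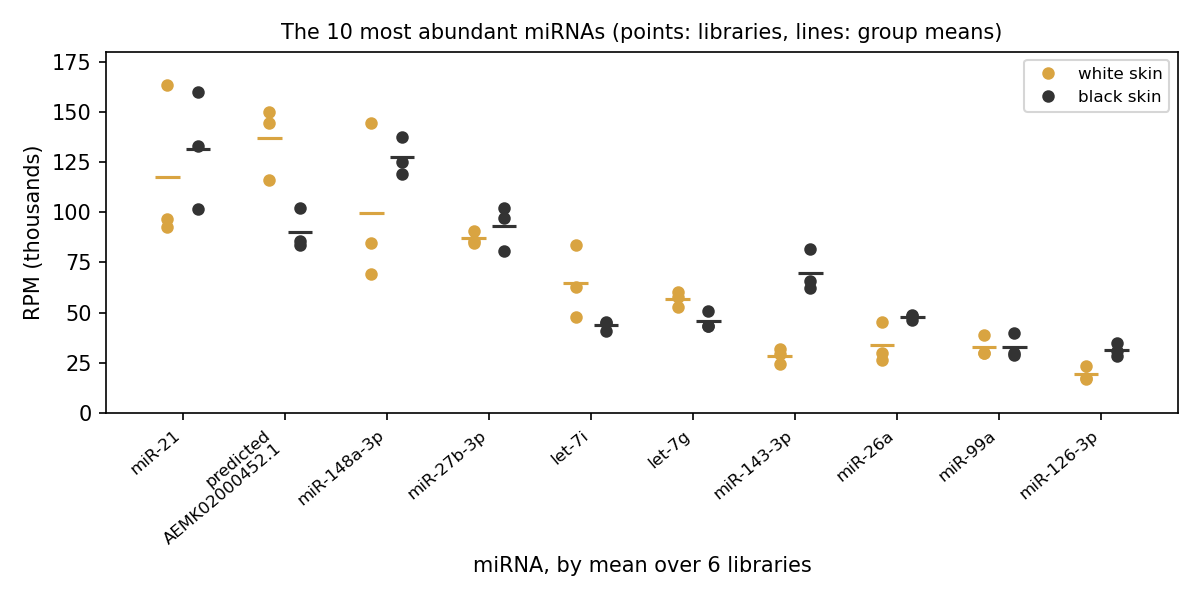
RPM, on an axis in units of 1000, of the 10 miRNAs with the highest mean over the 6 libraries. Points are libraries and short lines group means (n = 3); for ssc-miR-21 the white and black points span nearly the same range, from 92618 to 163112 RPM.

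Between the skin colours no difference in ssc-miR-21 was detected. The mean was 117525 ± 39536 RPM over the white libraries and 131400 ± 29131 RPM over the black ones (SD, n = 3 each). On the log2(RPM + 1) scale black minus white was 0.19 with a standard error of 0.25, a 1.14-fold higher level with a 95% interval from 0.769-fold to 1.68-fold (limma with Benjamini-Hochberg adjustment, adjusted p = 0.730). The interval holds both a fall and a rise, so the 2 colours are not shown to be equal. Over all 454 tested miRNAs 32 (7.05%) passed the same test, 18 (3.96%) higher and 14 (3.08%) lower in black skin. By its p-value ssc-miR-21 ranked 294th among these 454. Within the white group alone the highest library was 1.76 times the lowest, and within the black group 1.57 times, against 1.12 times between the group means.

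The share of all reads did not separate the colours either, with a mean of 11.8 ± 3.95% over white and 13.1 ± 2.91% over black libraries (n = 3, SD). The two-sided exact permutation p was 0.6, and 3 against 3 libraries cannot go below 0.1. The share of named reads was 14.1 ± 4.37% and 14.9 ± 3.14%, respectively (n = 3, SD; exact permutation p = 0.9, two-sided). This difference, 0.771 percentage points, is smaller than the 1.39 points over all reads, and the named reads themselves made up 82.9 ± 2.03% of white and 88.2 ± 1.23% of black libraries (n = 3, SD). Leaving out S05 turned the direction of both shares (-0.0233 and -0.777 points), and leaving out S02 (-0.595) or S06 (-0.379) turned that of the share of named reads.

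The spread within groups was wide for so abundant a miRNA. Its pooled SD within groups was 0.40 on the log2(RPM + 1) scale, against a median of 0.23 over the 53 tested miRNAs of at least 1000 RPM on average. In that set 5 were more variable than ssc-miR-21. Among the 10 most abundant, ssc-miR-148a-3p came close, with an SD of 0.39, and ssc-let-7g, at 0.11, was the steadiest. In these bulk libraries fewer cells of a type and less RNA per cell cannot be told apart.

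RPM values are shares of a fixed total, so the share of ssc-miR-21 enters every other value. Its reads lowered the RPM of all other miRNAs by a factor of 1.10 in S02 and 1.19 in S07, or 0.14 to 0.26 on the log2 scale. Averaged over groups this amounted to 0.18 in white and 0.20 in black skin, a difference of 0.022. With ssc-miR-21 taken out of the totals and of the test, 29 of the other miRNAs passed, 15 higher and 14 lower in black skin.

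Ratios inside a library do not depend on its total, and 9 were computed, one against each of the other 9 most abundant miRNAs. Relative to ssc-let-7i, a member of the let-7 family, ssc-miR-21 stood at 1.93 (S02), 1.54 (S06) and 1.95 (S07) times in white skin and at 2.96 (S03), 2.48 (S04) and 3.50 (S05) times in black skin. All black libraries lay above all white ones (log2 difference 0.71, two-sided exact permutation p = 0.1, adjusted p = 0.45 over the 9 ratios). The partner ssc-let-7i itself was lower in every black library than in any white one. Of all tested miRNAs 27.3% had no overlap between the colours, in either direction. The log2 difference of ssc-let-7i was -0.53, which did not pass (adjusted p = 0.150 with limma). By the same test ssc-miR-21 differed by 0.19, with overlapping groups, so this ratio does not show a rise of ssc-miR-21 itself. Relative to ssc-miR-143-3p, a smooth muscle miRNA, it stood at 3.13, 3.98 and 5.13 times in white and 1.63, 1.63 and 2.43 times in black skin. Here all black libraries lay below all white ones (log2 difference -1.10, two-sided exact permutation p = 0.1, adjusted p = 0.45). ssc-miR-143-3p itself rose in black skin (1.29, adjusted p = 0.00314 with limma).

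In the other 7 ratios the colours overlapped. Against ssc-miR-148a-3p, ssc-miR-21 ranged from 0.671 times (S06) to 2.35 times (S07), both in white skin, and the group difference was -0.24 on the log2 scale (exact permutation p = 0.8). Against ssc-miR-27b-3p it was the more abundant in 5 of 6 libraries, with 0.992 times in S04 as the exception (difference 0.09, exact permutation p = 0.8). Against the predicted unconservative_AEMK02000452.1_1853219 it stood at 0.618, 0.672 and 1.41 times in white and 1.56, 0.995 and 1.91 times in black skin (0.78, exact permutation p = 0.2). That partner was lower in every black library than in any white one (-0.59, adjusted p = 0.0629 with limma). This ratio thus does not show a rise of ssc-miR-21 itself. ssc-miR-21 was above ssc-let-7g, ssc-miR-99a, ssc-miR-26a and ssc-miR-126-3p in all 6 libraries. The differences in the log2 ratio were 0.50, 0.20, -0.34 and -0.52, with exact permutation p from 0.2 to 0.8. Of these partners ssc-let-7g belongs to the let-7 family, ssc-miR-26a is a reported regulator of EZH2, and ssc-miR-126-3p is the endothelial miRNA.

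**Figure D3:**
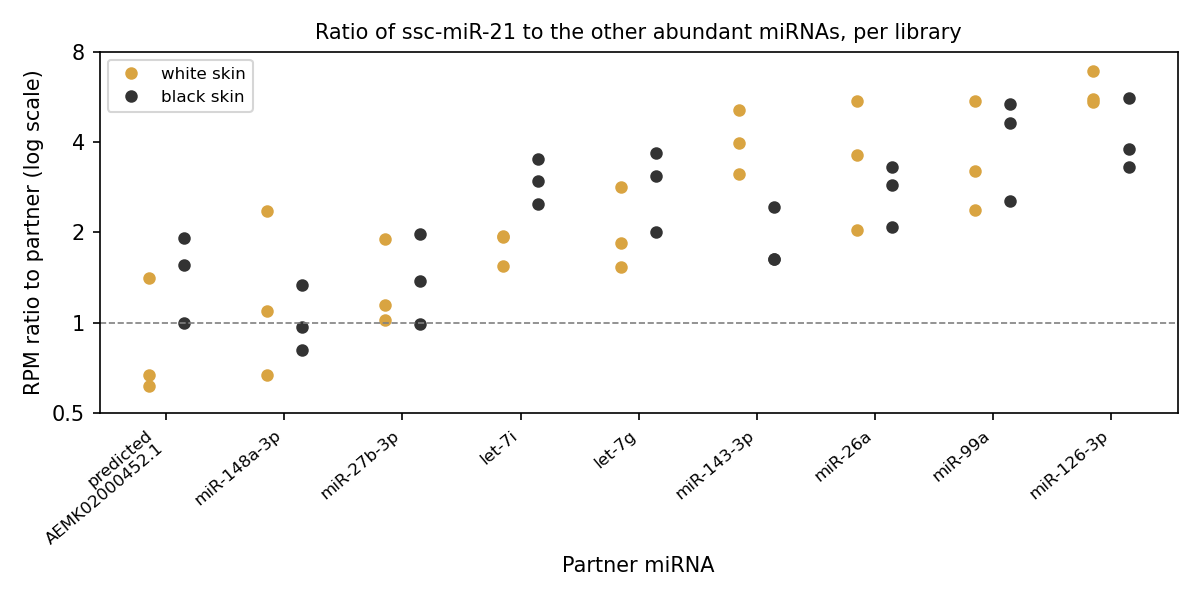
RPM of ssc-miR-21 divided by that of each of the other 9 most abundant miRNAs, on a log axis, with 1 point per library and equality at the dashed line. The colours separate for let-7i (1.54 to 1.95 in white, 2.48 to 3.50 in black) and miR-143-3p (3.13 to 5.13 in white, 1.63 to 2.43 in black).

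The level of ssc-miR-21 moved with the number of miRNA reads in the library, a relation looked at after its values were seen. S07, S05 and S03, with the most reads (10165949, 8647930 and 7745863), also had the highest ssc-miR-21 levels, in that order, and S04, S02 and S06 had 7332769, 7300193 and 6454685 reads. Over the 6 libraries Pearson's r was 0.887 (exact permutation p = 0.00417, adjusted p = 0.0167 over 4 coefficients) and Spearman's rho 0.943 (exact permutation p = 0.0167, adjusted p = 0.0222). Without S07 and S05, the libraries farthest from the median number of reads, r was 0.657 over 4 libraries, so much of the relation rests on those 2. Since ssc-miR-21 is itself part of the total, it was repeated on the reads of all other miRNAs, with r = 0.825 (exact permutation p = 0.00833, adjusted p = 0.0167) and rho = 0.829 (exact permutation p = 0.0583, adjusted p = 0.0583). On those reads S07 and S06 were the 2 libraries farthest from the median, and r without them was 0.896 over 4 libraries. S07 and S05 were not left out together on those reads, so this value is not comparable with the 0.657 above. With 3 libraries a colour, no coefficient was computed within colours: in black skin both measures ran S04, S03, S05 from low to high, and in white skin S07 was highest in both while S02 and S06 changed places.

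A limma fit with colour and log2 reads per library gave a slope of 1.41 ± 0.37 (standard error) in log2 ssc-miR-21 per doubling of reads. It did not pass over all miRNAs (unadjusted p = 0.00566, adjusted p = 0.285), and the slope was called for 0 of 454 (0%), with 28 at an unadjusted p under 0.05. In that fit black minus white was 0.17 ± 0.16 (standard error, adjusted p = 0.567). Reads per library did not separate the colours (two-sided exact permutation p = 1). The part of library yield, RNA input or RNA quality in the level of ssc-miR-21 was not tested.

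**Figure D4:**
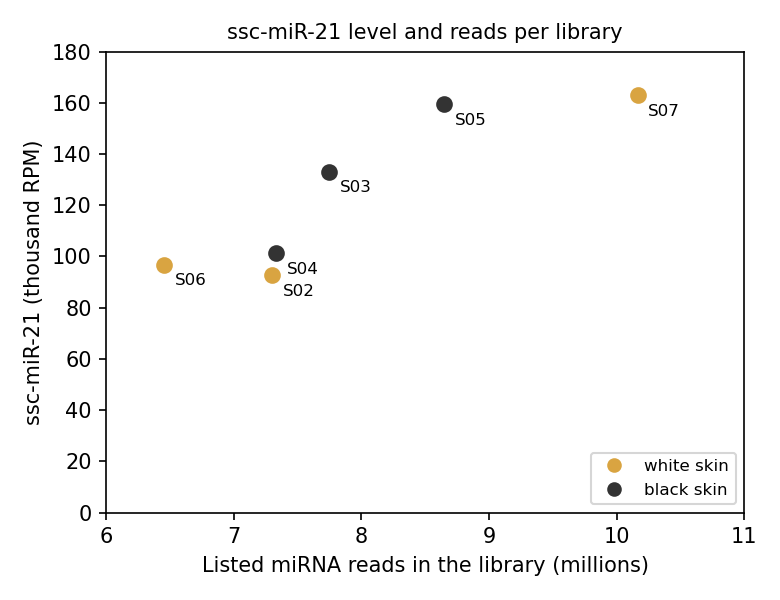
Level of ssc-miR-21 (axis in units of 1000 RPM) against the listed miRNA reads of each library (axis in units of 1e+06 reads), with 1 labelled point per library. S07 and S05 have the most reads and the highest levels, 163112 and 159617 RPM, and come from different colours.

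The miRNA whose level ran most nearly in proportion to ssc-miR-21 was ssc-miR-146a-5p, a miRNA induced by NF-kB. Of 109 named miRNAs of at least 100 RPM outside the 10 most abundant, its log2 ratio to ssc-miR-21 had the smallest SD over the 6 libraries, 0.14, against a median of 0.51. It measured 2177 (S02), 1792 (S06) and 3540 (S07) RPM in white and 2552 (S03), 2186 (S04) and 3669 (S05) RPM in black skin, so that ssc-miR-21 was between 42.5 times (S02) and 54.0 times (S06) as abundant. Next came ssc-miR-155-5p, a miRNA of activated leukocytes, with an SD of 0.20 and 232 to 423 RPM. The others were ssc-miR-98, of the let-7 family (0.24), ssc-miR-17-5p, of the miR-17-92 cluster (0.24), and ssc-miR-30a-5p (0.27). All points share library totals and depth, and the 5 were picked for this likeness. None of the 5 passed the test between colours (log2 differences -0.10 to 0.19, adjusted p 0.645 to 0.933).

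**Figure D5:**
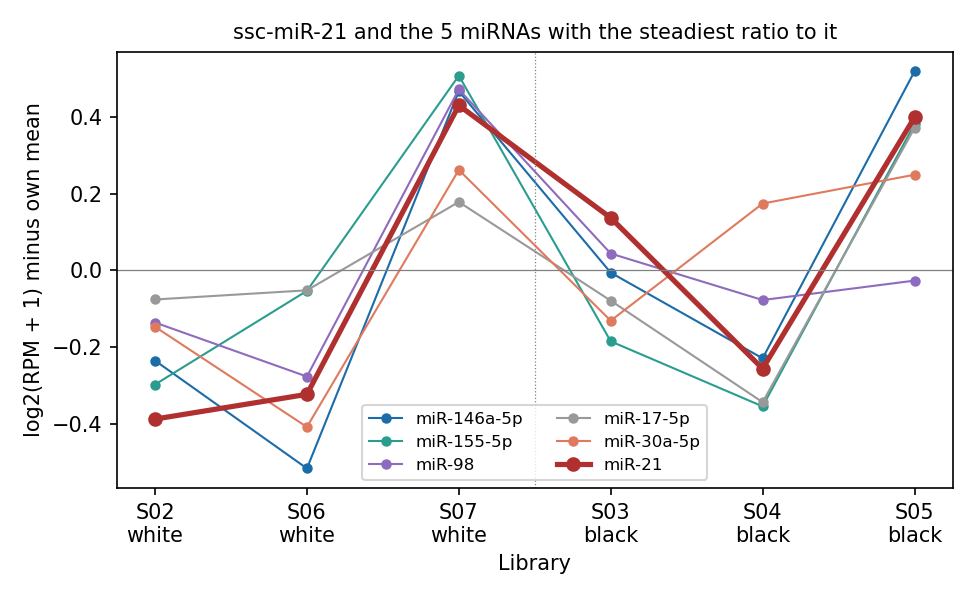
log2(RPM + 1) of ssc-miR-21 and of the 5 miRNAs with the steadiest ratio to it, each minus its own mean over the 6 libraries. Lines only join the points of 1 miRNA, since libraries have no order; ssc-miR-21 and miR-146a-5p are high in S07 and S05 and low in S02, S06 and S04.

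Among miRNAs linked to fibrosis and wound repair, 17 products of 14 names were tested, ssc-miR-21 included. None was called higher in black skin, 1 was called lower and 16 did not pass. Of all tested miRNAs 7.05% were called in either direction and 3.08% were called lower. The median difference was 0.09, or 0.039 without ssc-miR-21, against 0.0022 over all tested miRNAs. ssc-miR-21 made up 74.5% of the summed level of the list. The member that fell was ssc-miR-214, a mesenchymal miRNA, at 414.8, 486.9 and 589.8 RPM in white and 221.9, 303.4 and 281.2 RPM in black skin (-0.88, adjusted p = 0.0408). Its call was lost with ssc-miR-21 left out of the totals (adjusted p = 0.0581), with no filter (0.0845), with limma without a trend (0.0835) and on leaving out any library but S02 (0.0762 to 0.157). The abundant members gave -0.50 for ssc-miR-199a-3p and for ssc-miR-199b-3p, whose rows are identical and both counted in the list, 0.09 for ssc-miR-199b-5p and -0.0082 for ssc-miR-29a, which represses collagen genes.

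Of 10 tested products of the 8 names reported as induced by AP-1, STAT3 or NF-kB, 2 fell, none was called higher and 8 did not pass, against 3.08% lower over all tested miRNAs. Among the 10, ssc-miR-9 and ssc-miR-9-1 have identical rows, and both are counted. The median difference was -0.24, or -0.37 without ssc-miR-21. ssc-miR-21 held 96.0% of the summed level. ssc-miR-221-3p, the miRNA in the study's title, fell from 912 ± 272 RPM in white to 374 ± 46.0 RPM in black libraries (n = 3, SD; -1.24, adjusted p = 0.0318). ssc-miR-181b fell from 193 ± 51.2 to 87.8 ± 9.68 RPM (n = 3, SD; -1.09, adjusted p = 0.0329). ssc-miR-146a-5p gave 0.19, ssc-miR-146b -0.48 and ssc-miR-222 -0.73 (adjusted p = 0.744, 0.271 and 0.152). Both falls were lost with limma without a trend (adjusted p = 0.0502 and 0.0609) and on leaving out S03, S04, S05, S06 or S07 (0.0516 to 0.110), and that of ssc-miR-181b with ssc-miR-21 out of the totals (0.0526) and with no filter (0.0501). The 2 lists share members, so their counts are not independent.

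The skin epithelial miRNA ssc-miR-205 averaged 19830 ± 4277 RPM over white and 14237 ± 2596 RPM over black libraries (n = 3, SD), and miR-211, the best known melanocyte miRNA, had no matched row. Marker miRNAs of cell types gave the following summed levels. The 5 leukocyte products summed to 1101 (S02), 644.5 (S06) and 1380 (S07) RPM in white and to 1431 (S03), 934.6 (S04) and 1614 (S05) RPM in black skin, so the library with most ssc-miR-21 was also the highest of its colour here. Of these 5, 1 was called higher in black skin, ssc-miR-142-3p (1.96, adjusted p = 0.0324), against 7.05% called in either direction over all tested miRNAs. Its opposite arm and the most abundant of the list, ssc-miR-142-5p, gave 0.60 (adjusted p = 0.433), ssc-miR-150 gave 0.13, ssc-miR-155-5p -0.10 and ssc-miR-342 -0.88 (adjusted p = 0.0994), the last with all black libraries below all white ones, so the members did not move one way. Of all tested miRNAs 27.3% had no such overlap, in either direction. ssc-miR-342 passed with DESeq2 (adjusted p = 0.0275) and with named miRNAs only (0.0366). The call of ssc-miR-142-3p was lost with limma without a trend (adjusted p = 0.0580) and without S02, S06, S03 or S05 (0.0507 to 0.110). The 3 erythroid products summed to 3989, 1723 and 4914 RPM in white and 994.5, 1271 and 4298 RPM in black skin. Like the striated muscle sums below (2017 RPM in S07, 1604 RPM in S05), they were highest in S07 and S05 of their colour. None of the 3 was called, with ssc-miR-451 at -0.87, ssc-miR-486 at -1.68 and the scarce ssc-miR-144 at 1.24 (adjusted p = 0.368, 0.0743 and 0.284). ssc-miR-486 passed without S05 (adjusted p = 0.00933), with named miRNAs only (0.0341) and with DESeq2 (0.0113).

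The 5 epithelial products summed to 23475 to 34650 RPM in white and 18739 to 25754 RPM in black skin. Among the white libraries S07 had the lowest sum. The 2 most abundant members gave -0.47 (ssc-miR-205) and -0.52 (ssc-miR-182). Differences of the less abundant members ran from -0.31 to 0.21, so the list did not move one way. None of the 5 was called. This epithelial sum is partial, because 5 of the 10 names in that list had a matched row. No row was matched for miR-203, miR-200a, miR-200b, miR-200c or miR-141. The 5 fibroblast products summed to 29774 to 44259 and 25075 to 34133 RPM, and ssc-miR-214 was the called one. Both identical rows for the 3p arm of miR-199 are in these sums, which may thus count some reads more than once. Each of these rows stood at 11788 RPM in S02 and 6284 RPM in S03. The endothelial products rose, the 3p arm of miR-126 by 0.71 and the 5p arm by 0.89 (adjusted p = 0.0423 for each of ssc-miR-126-3p and ssc-miR-126-5p), with sums of 17322 to 23899 and 28989 to 35451 RPM. Of 4 smooth muscle products 1 rose, ssc-miR-143-3p, ssc-miR-145-5p gave 0.36, and the sums were 26728 to 34192 and 64998 to 84502 RPM. The remaining lists had no call in 9 tested products, a number too small to set against the 7.05% over all miRNAs: striated muscle (678 to 2017 and 959 to 1604 RPM, ssc-miR-1 at -0.12, ssc-miR-499-5p at 0.43, ssc-miR-206 at -2.56), neural (279.7 to 405.4 and 211.5 to 336.4 RPM, ssc-miR-9 at -0.11, ssc-miR-128 at -0.18) and the 1 melanocyte product, ssc-miR-204 (57.7 to 71.1 and 88.5 to 135 RPM; 0.82, adjusted p = 0.0804, and 0.0469 with DESeq2). ssc-miR-206, a skeletal muscle miRNA, measured 12.6 (S02), 106 (S06) and 115 (S07) RPM in white and 14.6 (S03), 4.77 (S04) and 8.21 (S05) RPM in black skin (adjusted p = 0.0804). It passed with named miRNAs only (adjusted p = 0.0402), edgeR (0.0495) and DESeq2 (0.0195) and without S02 (0.00227). The neural sums count the identical rows of ssc-miR-9 and ssc-miR-9-1 both. No product of these lists was at 0 in any library. Other names without a matched row were miR-223 (leukocyte), miR-208b (striated muscle), and miR-124 and miR-129 (neural), so those sums are partial too. The part of cell makeup in the level of ssc-miR-21 was not tested.

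The called endothelial and smooth muscle miRNAs differed between the colours while ssc-miR-21 overlapped. The calls of miR-126 were lost under several settings, among them edgeR on recovered reads (adjusted p = 0.0795 for ssc-miR-126-3p and 0.0528 for ssc-miR-126-5p), and each arm kept its call in 1 of the 6 fits without a library. ssc-miR-143-3p kept its call in all 6 (adjusted p up to 0.0183).

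On chromosome 12 the closest precursor of another listed and matched named miRNA was MIR142, 1.46 Mb from MIR21, at chr12:34609378-34609457. Its 3p arm, at 49.2 (S02), 24.8 (S06) and 73.3 (S07) RPM in white and 256 (S03), 103 (S04) and 211 (S05) RPM in black skin, was the called leukocyte miRNA above. ssc-miR-21 did not follow that pattern by library: its lowest black library, at 101434 RPM, lay below the white S07, whereas for ssc-miR-142-3p all black libraries lay above all white ones, as for 27.3% of all tested miRNAs without overlap in either direction.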

How the data were processed

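Small RNA libraries from 3 white and 3 black skin samples were grouped by the colour in their titles. The authors deposited 1 table of RPM, a unit inferred here because every column of listed miRNAs adds up to 1e+06. Bowtie and build Sscrofa11.1 are named without a version or role, per the submitters' processing notes. The counting tool, the miRNA database release and the filters were not given in the sources used here. All 6 columns were used and 0 left out.

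Whole reads were recovered from the smallest step of each library, and 100% of values came out whole (tolerance 0.001 reads). Intervals from these reads reflect counting error alone, because PCR copies are not independent molecules. The main test was limma 3.58.1 (R 4.3.3) on log2(RPM + 1) with its intensity trend, with Benjamini-Hochberg adjustment over all 454 miRNAs that edgeR 4.0.16's filterByExpr kept (minimum count 10, minimum total 15) and a threshold of 0.05. It was tested on simulated data. In these data the most abundant miRNAs, ssc-miR-21 among them, were held unchanged, so the simulation does not cover a change in ssc-miR-21. Single values were compared with two-sided exact permutation tests. On the recovered reads the count test of edgeR called 30 miRNAs and DESeq2 1.42.0 called 53. Between any 2 libraries the chi-square over miRNAs was at least 249 per degree of freedom, so none was counted as a duplicate.

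The miRNA, the lists and the tests were chosen with earlier results of these data known. Named in the text are ssc-miR-21, the other 9 of the 10 most abundant miRNAs, the 5 miRNAs of at least 100 RPM with the steadiest ratio to it, the 5 most abundant and all called members of 2 lists, and the 2 most abundant and all called members of 9 cell type marker lists. The relation with reads per library, the sums of let-7 rows and the neighbouring precursors on the chromosome were added after the values were seen, as were ssc-miR-150, ssc-miR-342, ssc-miR-144 and ssc-miR-206. Names in lists were matched to rows ignoring arm and copy number. Positions come from the RefSeq gene table for assembly Sscrofa11.1. No sequence was used. A further list in the design is not reported here.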

Additional observations from a re-analysis of the deposited data

How the results depend on the processing

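The difference in ssc-miR-21 kept its sign and stayed short of the threshold in all 14 other settings (0.10 to 0.20, adjusted p 0.567 to 0.888) and in the 6 fits without 1 library (0.03 to 0.45, adjusted p 0.246 to 0.964). In 1 of the 14, added after seeing the data, reads per library were a covariate. No paired analysis was possible because white and black libraries carry no common replicate number. Its share of all reads differed by -0.0233 to 3.67 points without 1 library, and its share of named reads by -0.777 to 3.29, or by -0.495 over the named members of the 10 most abundant miRNAs. Without 1 library the log2 ratio differed by -0.66 to 0.25 for ssc-miR-148a-3p, -0.16 to 0.36 for ssc-miR-27b-3p and -0.075 to 0.53 for ssc-miR-99a. As a difference in RPM the sign turned for ssc-miR-26a (86.2 RPM) and ssc-miR-126-3p (1793 RPM).

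Of all miRNAs 53 were called by DESeq2 (34 higher, 19 lower), 19 by limma without a trend and 7 to 37 without 1 library. By direction, 13 were higher and 17 lower with edgeR, and 16 and 19 with named miRNAs only. Called members of the fibrosis and wound repair list numbered 0 with ssc-miR-21 left out, no filter or no trend, 2 with reads per library as a covariate and 0 to 2 without 1 library. Those of the AP-1, STAT3 or NF-kB list numbered 1 with ssc-miR-21 left out or no filter, 0 with no trend and 0 to 2 without 1 library. The cause was not tested.

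Without S02, ssc-let-7i and ssc-miR-26a passed (adjusted p = 0.0448 and 0.0245). The predicted unconservative_AEMK02000452.1_1853219 stayed short of the threshold in 7 of 13 other settings and passed in the rest (lowest adjusted p = 0.0328). It also passed in 1 of the 6 fits without a library (adjusted p = 0.0481). Signs turned for uncalled miRNAs near 0. Without 1 library the ranges were -0.74 to 0.25 (ssc-miR-1), -0.36 to 0.014 (ssc-miR-128), -0.023 to 0.47 (ssc-miR-146a-5p), -0.32 to 0.12 (ssc-miR-155-5p), -0.24 to 0.41 (ssc-miR-150), -0.23 to 0.13 (ssc-miR-17-5p), -0.12 to 0.34 (ssc-miR-199b-5p), -0.12 to 0.087 (ssc-miR-29a), -0.48 to 0.41 (ssc-miR-9), -0.19 to 0.19 (ssc-miR-98) and -0.16 to 0.11 (ssc-miR-99a). ssc-miR-199b-5p gave -0.0040 with named miRNAs only. ssc-miR-29a gave 0.0036 with upper-quartile factors and 0.014 with ssc-miR-21 left out, and ssc-miR-99a 0.0089 with the latter. The counting intervals of ssc-miR-21 were far narrower than the spread between libraries, but they cover counting error only, and its level moved with reads per library.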
